A study of Mus musculus with 6 samples.

Results

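Neutrophil-recruiting CXC chemokines and their receptor were examined in macrophages sorted from skin wounds of young and aged mice. The group holds 7 genes, namely the chemokines Cxcl1, Cxcl2, Cxcl3, Cxcl5, Ppbp and Pf4 and the receptor Cxcr2. They were picked by symbol, for their role in neutrophil recruitment, from a table of 15168 genes. Each of the 7 was in the table, and each passed the filter on low counts that left 11878 genes for testing.

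The macrophages came from C57BL/6J wild-type female mice that carried full-thickness excisional wounds on the back. Young mice were 12 weeks old (n = 3 samples) and aged mice were 24 months old (n = 3 samples), and all samples were taken on day 3 after wounding. Wounds were digested with Liberase, and live CD45+ CD11b+ CD64+ F4/80+ cells were sorted and their cDNA amplified for bulk RNA-sequencing. Ly6G was not used to gate out neutrophils. No treatment or transgene separated the groups, and age was the only labelled difference. The mice were kept at either of 2 institutes, and which institute or how many animals stood behind each sample was not given in the sources used here, so p-values measure the spread between these samples. Samples carried the set letters A, B and C in each age group.

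CXC chemokines are small secreted proteins that guide leukocytes. Those with a glutamate-leucine-arginine motif before the first cysteines bind CXCR2 on neutrophils and draw them into tissue. Cxcl1 (KC), Cxcl2 (MIP-2) and Cxcl3 are made in bursts by macrophages and stromal cells when interleukin-1 or Toll-like receptors activate NF-κB, and their short-lived transcripts carry AU-rich elements. Cxcl5 (LIX) is best known from epithelial and stromal cells. Ppbp encodes a precursor that proteases trim to the CXCR2 ligand NAP-2 (CXCL7), and Pf4 encodes platelet factor 4 (CXCL4), which lacks the motif. Ppbp and Pf4 proteins are stored in platelet granules, and both genes can also be transcribed in macrophages. In wounds these chemokines bring in the neutrophils that clear microbes and debris.

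The libraries held 15270103 to 17927483 expected counts each, so 1 count was worth 0.0553 to 0.0701 CPM. CPM are counts scaled to a common library size, here adjusted by the trimmed mean of M-values (TMM). The genes that defined the sort were present in every sample. Fcgr1 (CD64) was at 422 to 467 CPM in young and 486 to 514 CPM in aged samples. Adgre1 (F4/80) was at 290 to 357 CPM in young samples and lower, at 172 to 241 CPM, in aged samples (log2 fold change -0.69, SE 0.18, edgeR adjusted p = 0.0292). Itgam (CD11b) was at 334 to 402 CPM in young samples and higher, at 702 to 822 CPM, in aged samples (log2 fold change 0.99, SE 0.17, edgeR adjusted p = 0.00735). Ptprc (CD45) was at 195 to 229 and 190.2 to 308 CPM (log2 difference 0.26, edgeR adjusted p = 0.386). Aged B stood apart by keratinocyte and fibroblast markers, as given below beside the genes it touches.

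Of the 7 genes, 5 were higher in aged than in young macrophages at an adjusted p under 0.05 in edgeR's quasi-likelihood test, namely Cxcl2, Cxcl3, Cxcl5, Ppbp and Cxcr2. In all tested genes, 9.73% were higher by this rule. Without young C, 2 of the 7 (Cxcl2 and Cxcl3) passed at over 2-fold, and the genes called by that rule over the whole table fell from 1044 to 213. None of the 7 was lower (0 also at an unadjusted p under 0.05 and in DESeq2), against 7.97% of all tested genes (4.2% when over 2-fold), and Cxcl1 and Pf4 did not pass the test. The same 5 genes also differed by over 2-fold, which 4.59% of tested genes did in that direction. The median log2 fold change of the 7 genes was 1.46, against -0.02 over all tested genes. In 5 genes (Cxcl1, Cxcl2, Cxcl3, Cxcl5 and Ppbp) every aged sample lay above every young sample, as in 19.2% of tested genes.

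Together the 7 genes took up 0.580%, 0.737% and 0.670% of all counts in young A, B and C. They took up 2.01%, 1.57% and 1.92% in aged A, B and C. Most of this was Cxcl2 and Cxcl3. By mean CPM, Cxcl3 ranked 72nd of all genes in young and 11th in aged samples, and Cxcl2 ranked 50th and 16th. In bulk samples, fewer cells of a type and less RNA per cell cannot be told apart, so a level here is that of the sorted sample.

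**Figure D1:**
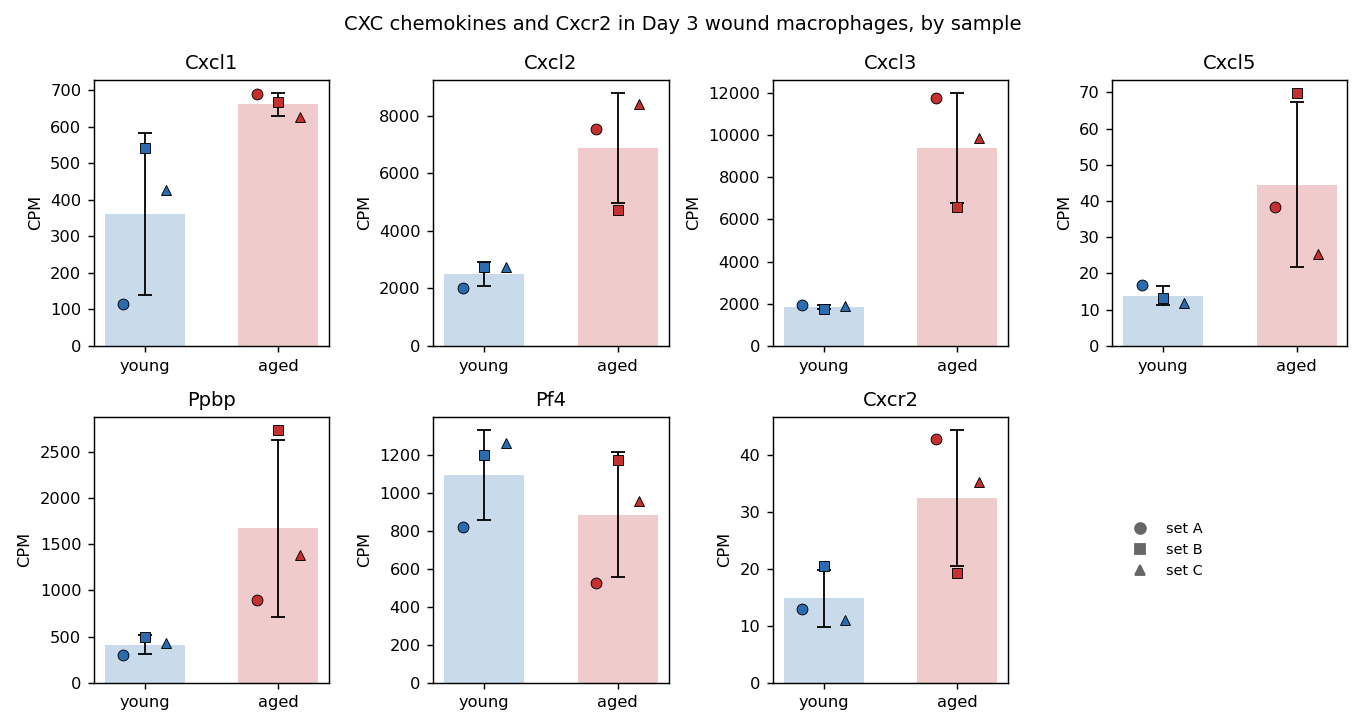
Level of each gene in CPM (TMM-scaled) in the 3 young (blue) and 3 aged (red) samples, with bars at the mean, error lines of 1 SD and 1 point shape for each set letter. The aged points lie above all young points for Cxcl1, Cxcl2, Cxcl3, Cxcl5 and Ppbp, while the ages overlap for Pf4 and Cxcr2.

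The ligands most abundant in aged samples were Cxcl3 and Cxcl2. Cxcl3 was at 1925, 1753 and 1879 CPM in young A, B and C and at 11753, 6582 and 9860 CPM in aged A, B and C. The young samples lay close together and far below the lowest aged sample, aged B. The mean rose from 1852 ± 89.1 CPM (SD, n = 3) to 9398 ± 2616 CPM (SD, n = 3), a 5.07-fold difference (95% interval 3.50 to 7.35, log2 fold change 2.34, SE 0.24, edgeR adjusted p = 0.00127).

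Cxcl2, like Cxcl3 a ligand that macrophages make within hours of stimulation, was at 2023, 2735 and 2739 CPM in young A, B and C. It was at 7538, 4733 and 8395 CPM in aged A, B and C. Again the ages did not overlap and aged B was the lowest aged sample. The mean rose from 2499 ± 412 to 6889 ± 1915 CPM (SD, n = 3 each), a 2.76-fold difference (95% interval 1.88 to 4.05, log2 fold change 1.46, SE 0.25, edgeR adjusted p = 0.00779). Without aged B the log2 fold changes of Cxcl3 and Cxcl2 were 2.56 and 1.69.

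Cxcl1, the third inducible ligand, was at 114, 543 and 428 CPM in young A, B and C. It was at 691, 667 and 627 CPM in aged A, B and C. All aged samples lay above all young samples, but young A was far below the other young samples. The young mean was 362 ± 222 CPM and the aged mean 662 ± 32.0 CPM (SD, n = 3 each), and the log2 difference of 0.87 (SE 0.42, 95% interval -0.07 to 1.81) did not pass edgeR's test (adjusted p = 0.173). Without young A the log2 difference was 0.45 (edgeR adjusted p = 0.120).

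Levels of the inducible ligands were also compared within each sample, which needs no scaling between libraries. Cxcl3 counts per Cxcl2 count were 0.951, 0.641 and 0.686 in young A, B and C and 1.56, 1.39 and 1.17 in aged A, B and C. Every aged ratio lay above every young ratio, with a log2 difference of 0.87 (two-sided exact permutation p = 0.1, the smallest that 3 against 3 samples allow, 0.15 after adjustment over the 3 ratios compared). The ratio of Cxcl1 to Cxcl2 was 0.0565, 0.199 and 0.156 in young and 0.0916, 0.141 and 0.0747 in aged samples. These values overlapped between the ages (log2 difference -0.29, exact permutation p = 0.7).

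Reads can be shared between these paralogs. Identity was taken over coding sequences and shared runs over whole transcripts. The coding sequences of Cxcl2 and Cxcl3 were 89.8% identical over 303 aligned bases, and their transcripts shared an identical run of 110 bases. Cxcl1 was 78.7% identical to Cxcl2 and 75.6% to Cxcl3, with no shared run over 23 bases. All other ligand pairs were 58.3% to 69.8% identical, with shared runs of at most 12 bases. How the quantification divided reads that fit both Cxcl2 and Cxcl3 was not tested.

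The promoters of the inducible ligands were set beside those of Ppbp and Pf4, because the ligands lie in 1 cluster and did not all pass the age test. The 120 bases before the earlier of the RefSeq and Ensembl starts of transcription are shown from RefSeq (GRCm38.p6, the mm10 build), 5′ to 3′. Capitals mark GGGAATTTCC, the form of the NF-κB consensus read from the Cxcl1 promoter, and the letters ATAAAAG, searched on both strands. In Ppbp the only exact match to ATAAAAG lies on the opposite strand, 86 bases before the start, and reads CTTTTAT. Nearer the start, the plus strand of Ppbp reads tataaaaag, which has an extra A and so is not marked. These windows are the following.
Cxcl1, chr5:90891121-90891240, plus strand: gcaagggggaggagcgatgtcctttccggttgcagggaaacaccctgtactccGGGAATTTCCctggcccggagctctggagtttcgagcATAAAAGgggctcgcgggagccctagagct
Cxcl2, chr5:90903751-90903870, plus strand: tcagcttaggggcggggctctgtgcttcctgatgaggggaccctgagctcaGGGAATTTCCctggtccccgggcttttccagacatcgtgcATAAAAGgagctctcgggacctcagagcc
Cxcl3, chr5:90785981-90786100, plus strand: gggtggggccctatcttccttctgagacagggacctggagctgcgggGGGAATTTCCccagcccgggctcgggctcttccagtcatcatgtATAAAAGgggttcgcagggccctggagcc
Ppbp, chr5:90768398-90768517, plus strand: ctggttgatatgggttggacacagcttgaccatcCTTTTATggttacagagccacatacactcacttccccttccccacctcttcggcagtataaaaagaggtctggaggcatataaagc
Pf4, chr5:90772315-90772434, plus strand: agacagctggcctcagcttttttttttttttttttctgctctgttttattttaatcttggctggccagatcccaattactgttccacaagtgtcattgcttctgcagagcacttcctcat

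GGGAATTTCC stood once in each promoter of Cxcl1, Cxcl2 and Cxcl3, at 71, 97 and 73 bases before the RefSeq start, and always on the plus strand. It was not among the 250 bases before the start of Ppbp, Pf4 or Cxcr2. Of 32851 mouse promoters of that length in RefSeq, 28 (0.0852%) held these letters on either strand, and 7.25% held the broader NF-κB consensus. ATAAAAG stood 34, 57 and 29 bases before the RefSeq start of Cxcl1, Cxcl2 and Cxcl3, and 4.83% of promoters held it. For Cxcl1 and Cxcl2 the RefSeq start lies beyond the end of the window shown, so these distances exceed those within the windows. Both motifs were thus shared by Cxcl1, which did not pass the test, and by Cxcl2 and Cxcl3, which did. TTNNGNAA, the core that C/EBP factors bind, stood once in Cxcl2 and at 2 places in Pf4 and was held by 36.8% of promoters. TGANTCA, the AP-1 site, stood once in Ppbp and was held by 6.75%. AGATAA, to which megakaryocyte factors of the GATA family bind, was in none of the 6 promoters and was held by 9.99%. A match is a description of the letters and was not tested as a binding site, and no promoter of Cxcl5 was matched.

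The 3′ untranslated regions of the same ligands differ in AU-rich elements, the ATTTA motifs through which proteins such as tristetraprolin (Zfp36) speed decay. The stretch of 30 bases richest in the longer form TTATTTATT, and then in ATTTA, is shown for Cxcl1, Cxcl2 and Cxcl3 from GENCODE M21 transcripts (GRCm38), with ATTTA in capitals.
Cxcl1, chr5:90892604-90892633, plus strand: gggtcctATTTATTTAtgtATTTATTTAtt
Cxcl2, chr5:90905325-90905354, plus strand: cttATTTATTTAtctatgtATTTATTTAtt
Cxcl3, chr5:90787856-90787885, plus strand: actatacaagattatcagttgttATTTAtt

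Cxcl2 held 11 ATTTA motifs in 734 bases, and 0.0911% of untranslated regions within 20% of its length held as many. Cxcl1 held 7 in 592 bases (0.386% held as many), and Cxcl3 held 5 in 645 bases (2.77%). Cxcl5 held 5 in 1111 bases (11.6%), Cxcr2 held 2 in 990 bases (46.7%), and Ppbp and Pf4 held 1 each in 656 and 123 bases (59.1% and 16.4%). TTATTTATT stood 4 times in Cxcl2, 2 times in Cxcl1 and once in Cxcl3 and was not in the other 4 genes, against 6.32% of all 18943 regions compared.

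All 6 ligands lie within 147 kb of chromosome 5 in mm10, all on the plus strand. From the proximal end these are Cxcl5 (chr5:90759360-90761625), Ppbp (chr5:90768518-90770064), Pf4 (chr5:90772435-90773384), Cxcl3 (chr5:90786103-90789601), Cxcl1 (chr5:90891241-90893116) and Cxcl2 (chr5:90903871-90905939). RefSeq places 7 coding genes in that stretch, of which 6 are the ligands. Cxcr2 lies apart, at chr1:74153989-74161247 on the plus strand. The age difference was not uniform along the cluster, since Pf4, with a log2 fold change of -0.31, sits between Ppbp at 2.02 and Cxcl3 at 2.34. Beyond Cxcl2, the neighbours Mthfd2l (0.49, edgeR adjusted p = 0.237), Ereg (0.46, 0.481) and Areg (0.74, 0.143) did not pass the test. Ereg and Areg encode the growth factors epiregulin and amphiregulin.

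**Figure D2:**
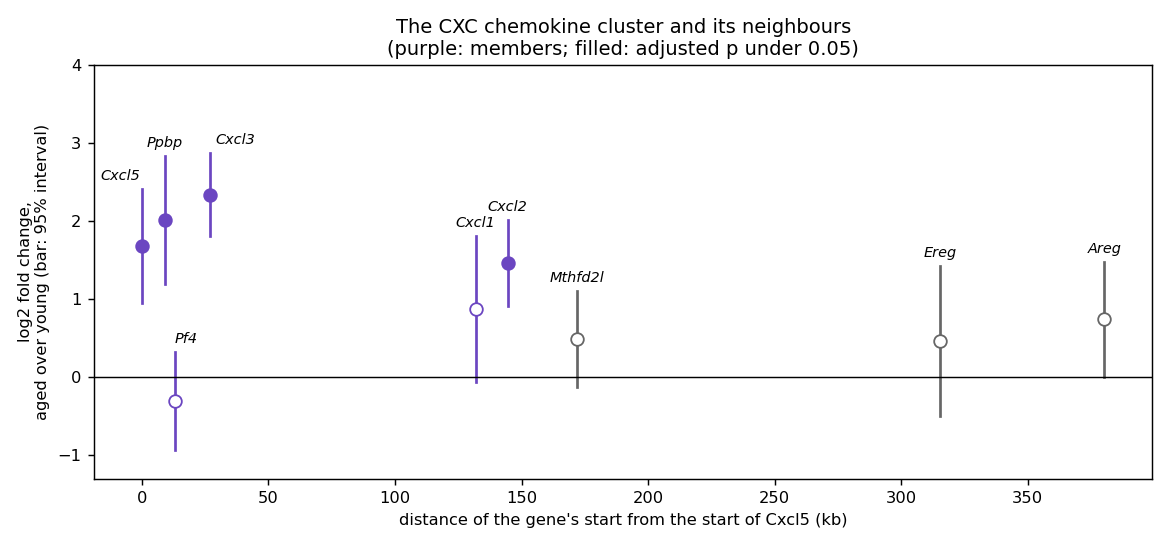
Log2 fold change, aged over young, of the cluster genes (purple) and neighbours (grey) against the distance of each gene's start from the start of Cxcl5 in kb, with 95% intervals as bars and filled points for an edgeR adjusted p under 0.05. Cxcl5, Ppbp, Cxcl3 and Cxcl2 are filled, while Pf4, at -0.31, Cxcl1 and the 3 neighbours are open.

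Ppbp and Pf4, the pair known from platelets, differed from each other although their starts are under 4 kb apart. Ppbp was at 303, 500.0 and 432 CPM in young A, B and C and at 890.2, 2738 and 1384 CPM in aged A, B and C. The ages did not overlap, and aged B was far above the other samples. Aged B also stood apart by its keratinocyte markers (221 CPM in sum, against at most 10.9 CPM in the other samples) and fibroblast markers (123 CPM against at most 42.1 CPM), whose part in the Ppbp result was not tested. The mean rose from 412 ± 99.9 to 1671 ± 957 CPM (SD, n = 3 each), a 4.06-fold difference (95% interval 2.30 to 7.17, log2 fold change 2.02, SE 0.37, edgeR adjusted p = 0.00967). Without aged B the log2 fold change was 1.48 (edgeR adjusted p = 0.00788), and without young C it was 2.06 but the adjusted p was 0.0586.

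Pf4 was at 820.1, 1198 and 1262 CPM in young A, B and C and at 527, 1172 and 955 CPM in aged A, B and C. The ages overlapped. The means were 1094 ± 239 and 885 ± 329 CPM (SD, n = 3 each), with a log2 difference of -0.31 (SE 0.29, 95% interval -0.94 to 0.33, edgeR adjusted p = 0.477). Pf4 was the ligand whose estimate lay below 0.

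Within each sample, Ppbp counts per Pf4 count were 0.370, 0.417 and 0.343 in young A, B and C and 1.69, 2.34 and 1.45 in aged A, B and C. These are ratios of counts, not of levels per length. Every aged ratio lay above every young ratio, with a log2 difference of 2.25 (two-sided exact permutation p = 0.1, the smallest possible, 0.15 after adjustment over 3 ratios).

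Platelet markers were examined beside Ppbp and Pf4. Of 17 platelet and megakaryocyte markers, 10 were in the table, and Itga2b, Gp1bb, Clec1b and Alox12 stayed under 1 CPM in every sample. Rgs10, which macrophages also express, made up most of the list and was lower in aged samples (log2 fold change -1.03, edgeR adjusted p = 0.00706). Without it the list summed to 4.76 to 8.62 CPM in young and 8.40 to 21.7 CPM in aged samples, against 303 to 2738 CPM for Ppbp over all samples. Selp, encoding P-selectin of platelets and endothelium, was at 0.793 to 1.66 CPM in young and 3.40 to 16.4 CPM in aged samples (log2 fold change 2.49, edgeR adjusted p = 0.0259). It was highest in aged B, where it made up 16.4 of the 21.7 CPM. Endothelial markers summed to 12.3 to 12.7 CPM in young and 26.0 to 38.8 CPM in aged samples, also highest in aged B. Of the 3 endothelial markers tested, Pecam1 was higher (log2 fold change 1.69, edgeR adjusted p = 0.00220). Kdr and Vwf had log2 differences of -0.40 and -0.38 (edgeR adjusted p = 0.634 and 0.612). Markers of resident dermal macrophages, which can transcribe Pf4, summed to 1412 to 1920 CPM in young and 1447 to 2436 CPM in aged samples, led by F13a1 at 526 to 907 CPM. Of the 15 resident macrophage markers tested, 1 was higher and 1 lower in edgeR (4 and 2 in DESeq2), against 9.73% and 7.97% of all tested genes. Cbr2 was lower in aged samples (log2 fold change -1.16, edgeR adjusted p = 0.0428) and Ednrb was higher, at a mean of 88.1 ± 18.3 CPM (SD, n = 3) in young and 176 ± 49.1 CPM (SD, n = 3) in aged samples (edgeR adjusted p = 0.0200). Others were highest in aged B, such as Cd163, at 141 CPM there and 19.6 to 38.8 CPM in the other samples. The part of platelets and of resident macrophages in the Ppbp and Pf4 values was not tested.

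Cxcl5 was scarce. It was at 16.8, 13.1 and 11.8 CPM in young A, B and C and at 38.3, 69.9 and 25.4 CPM in aged A, B and C, which are 178 to 303 and 412 to 1098 counts. The ages did not overlap. The mean rose from 13.9 ± 2.59 to 44.5 ± 22.9 CPM (SD, n = 3 each), a 3.21-fold difference (95% interval 1.94 to 5.31, log2 fold change 1.68, SE 0.33, edgeR adjusted p = 0.0119). Without young C it was 1.58 on the log2 scale with an edgeR adjusted p of 0.0741.

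Aged B, the highest sample for Cxcl5, was also the highest for markers of stromal and epithelial cells. Keratinocyte markers, 11 of 13 in the table, summed to 2.17 to 3.71 CPM in young samples, 10.9 and 4.08 CPM in aged A and C, and 221 CPM in aged B. Fibroblast markers, 9 of 10 in the table, summed to 23.9 to 42.1 CPM in young samples, 13.2 and 36.4 CPM in aged A and C, and 123 CPM in aged B. Without aged B the Cxcl5 log2 fold change was 1.21 (edgeR adjusted p = 0.0151), and aged A and C still lay above every young sample. The part of stromal and epithelial cells in the Cxcl5 result was not tested.

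Cxcr2, the receptor, was also scarce. It was at 12.9, 20.5 and 11.0 CPM in young A, B and C and at 42.8, 19.4 and 35.3 CPM in aged A, B and C. Aged A and C lay above every young sample, but aged B lay below young B. The young mean was 14.8 ± 5.04 CPM and the aged mean 32.5 ± 12.0 CPM (SD, n = 3 each), a 2.19-fold difference (95% interval 1.36 to 3.53, log2 fold change 1.13, SE 0.31, edgeR adjusted p = 0.0340). The edgeR adjusted p was under 0.05 in 2 of the 6 fits that left out 1 sample (0.0429 without young B and 0.0118 without aged B) and between 0.0632 and 0.143 in the others.

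Neutrophil markers were measured beside Cxcr2. Of 19 markers, 17 were in the table, and their sum was 1180, 1720 and 1654 CPM in young A, B and C and 2413, 1488 and 2470 CPM in aged A, B and C. As for Cxcr2, aged A and C were highest and aged B was below young B. Of the 15 neutrophil markers tested, 4 were higher in aged samples, namely Cd177, Lcn2, Retnlg and Mxd1, with log2 fold changes of 1.62, 0.99, 0.85 and 0.72, against 9.73% of all tested genes, and none was lower (1, Mmp9, at an unadjusted p under 0.05 and 0 in DESeq2). Ly6g, the marker not excluded in the sort, was at 6.14 to 10.9 CPM in young and 6.18 to 9.60 CPM in aged samples (log2 difference 0.05, edgeR adjusted p = 0.923). Csf3r, the receptor for granulocyte colony-stimulating factor, was at 33.7 to 48.7 and 28.4 to 71.9 CPM (log2 difference 0.33, edgeR adjusted p = 0.459), and Elane was at 0 in all young samples. Their part in the Cxcr2 result was not tested.

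**Figure D3:**
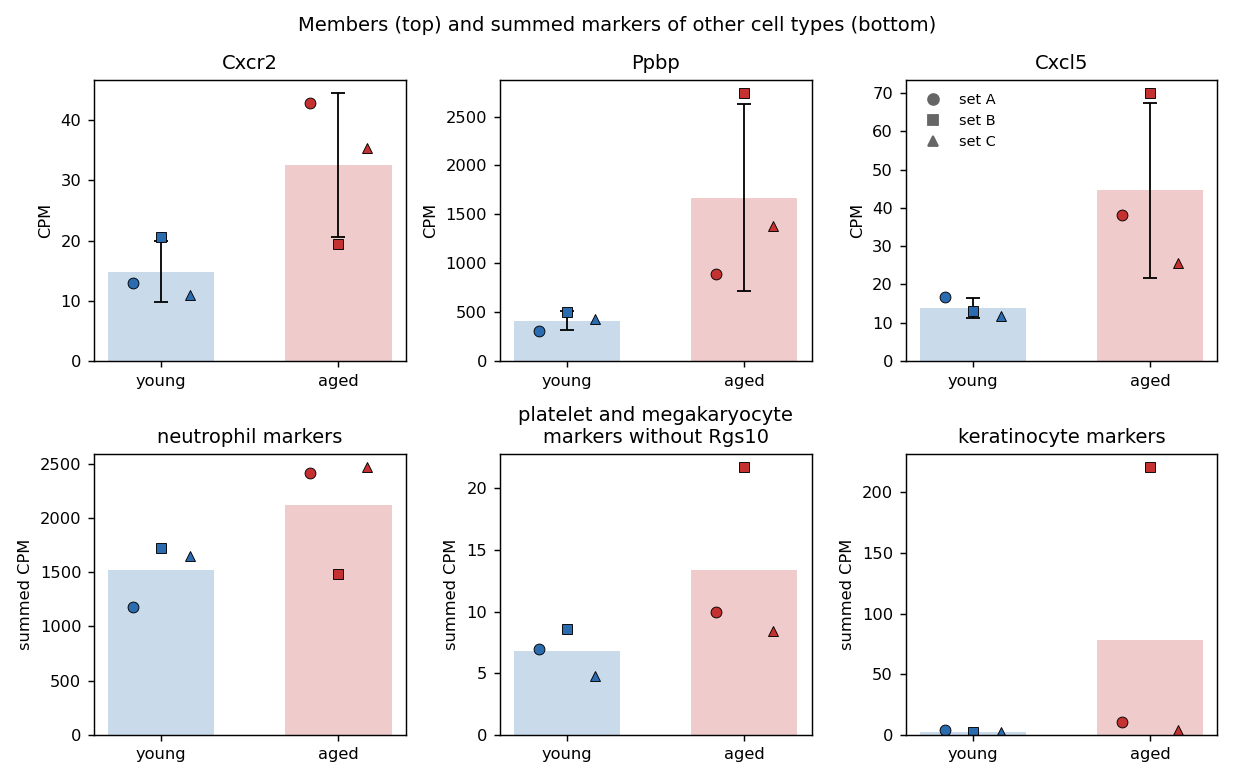
Top, CPM of Cxcr2, Ppbp and Cxcl5 in young (blue) and aged (red) samples with means as bars and 1 SD as lines. Bottom, summed CPM of neutrophil, platelet (without Rgs10) and keratinocyte markers with means as bars, in which aged B (square) is lowest of the aged samples for neutrophil markers at 1488 CPM and highest for keratinocyte markers at 221 CPM.

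For the order of levels, CPM were divided by the median length in kilobases of each gene's coding transcripts. In young samples Pf4 came first at 2189 ± 479 CPM per kb (SD, n = 3), followed by Cxcl3 at 1823 ± 87.7 and Cxcl2 at 1684 ± 278, and each overlapped the next of these. Ppbp at 380.4 ± 92.2 and Cxcl1 at 379.6 ± 233 CPM per kb overlapped each other and lay below Cxcl2 in every sample. Cxcl5 at 8.80 ± 1.65 and Cxcr2 at 5.63 ± 1.91 CPM per kb came last and overlapped.

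In aged samples Cxcl3 came first at 9250.2 ± 2575 CPM per kb (SD, n = 3) and did not overlap Cxcl2 at 4642 ± 1291. Pf4 at 1771 ± 658 and Ppbp at 1543 ± 883 CPM per kb followed and overlapped each other. Cxcl1 was at 694 ± 33.6, and Cxcl5 at 28.3 ± 14.5 and Cxcr2 at 12.3 ± 4.55 CPM per kb again came last and overlapped. With the longest coding transcript in place of the median, Ppbp at 1543 came before Pf4 at 1504 CPM per kb in aged samples. With that length Cxcl3 and Cxcl2 no longer overlapped in young samples, nor did Cxcl5 and Cxcr2 in either age.

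**Figure D4:**
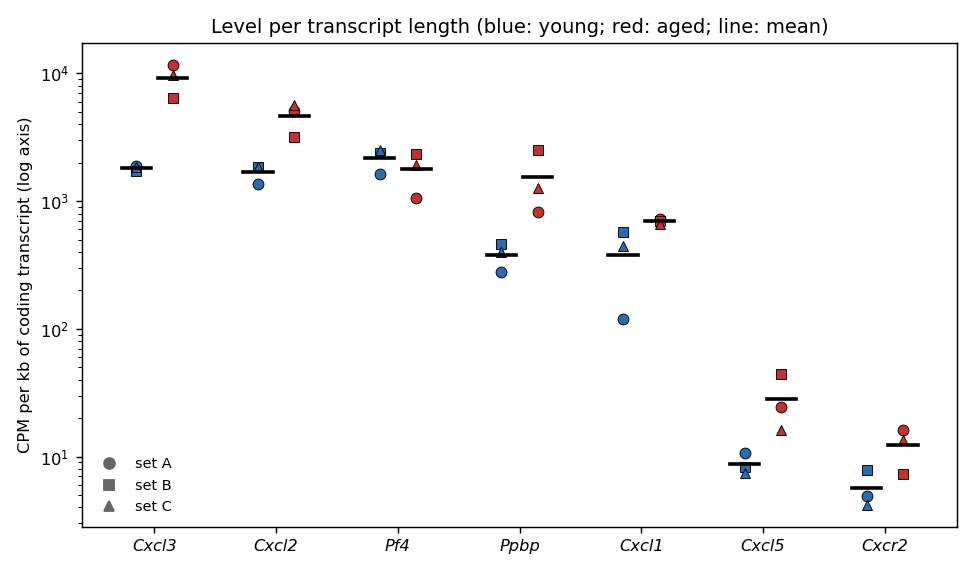
CPM per kb of coding transcript on a log axis for each gene, ordered by the aged mean, with young samples in blue, aged samples in red and the mean as a line. Cxcl3 and Cxcl2 stand highest in aged samples, at means of 9250.2 and 4642, and Cxcl5 and Cxcr2 lowest in both ages.

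Other CXC chemokines and receptors, 14 of 18 listed in the table and 11 tested, had a median log2 fold change of -0.51, with 1 higher and 2 lower in aged samples, against 9.73% and 7.97% of all tested genes, and such small counts say little about the list. Cxcl16, a membrane-bound ligand of CXCR6 that also scavenges oxidised lipoprotein, fell from 421 ± 58.8 to 237 ± 26.5 CPM (SD, n = 3 each; log2 fold change -0.83, SE 0.18, edgeR adjusted p = 0.0152). Cxcr4, the CXCL12 receptor that holds cells in bone marrow, fell from 68.0 ± 15.5 to 38.9 ± 7.47 CPM (log2 fold change -0.80, edgeR adjusted p = 0.0316). Cxcr5, the CXCL13 receptor, was the gene that passed as higher (log2 fold change 1.60, edgeR adjusted p = 0.0283) and was at 0.645 to 1.38 CPM in young and 2.61 to 3.03 CPM in aged samples. Cxcr1, the other receptor for neutrophil-recruiting CXC ligands, was at 0.166 to 1.70 and 1.02 to 3.50 CPM (log2 difference 1.71, edgeR adjusted p = 0.127). The interferon-induced ligands Cxcl9 and Cxcl10, which attract T cells, had log2 differences of -1.14 and -0.51 (edgeR adjusted p = 0.143 and 0.248).

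**Figure D5:**
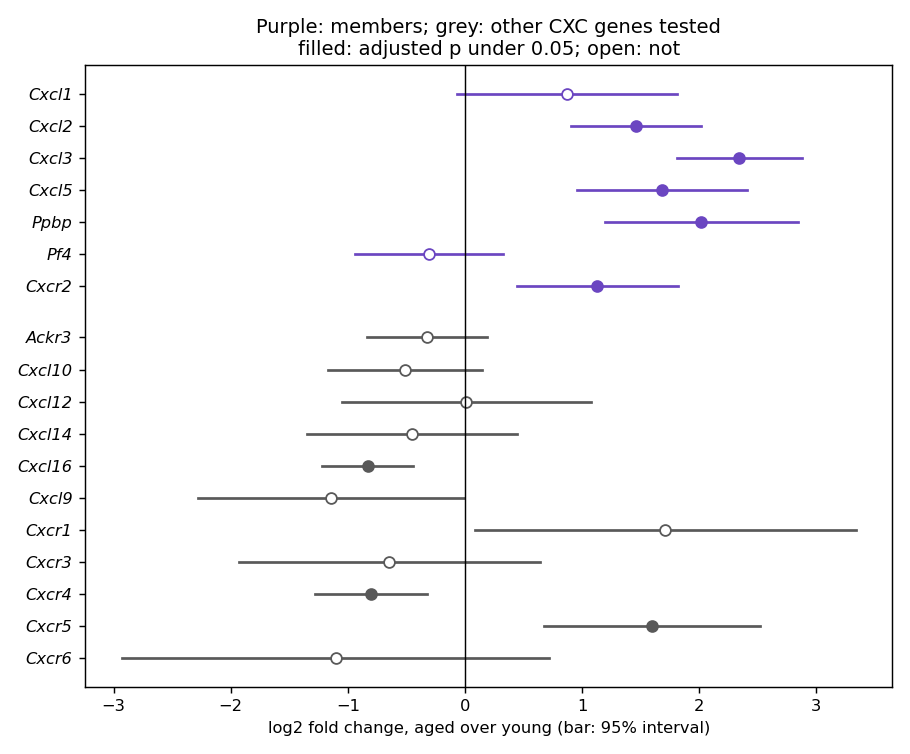
Log2 fold change, aged over young, with 95% intervals for the 7 genes (purple) and for 11 other CXC chemokines and receptors (grey), filled where the edgeR adjusted p was under 0.05. Of the purple points 5 are filled and lie above 1, while of the grey points Cxcl16 and Cxcr4 are filled below 0 and Cxcr5 above 0.

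Neutrophils are also drawn and sustained by factors of other families. Of 17 genes tested that encode such attractants, their enzymes and receptors or granulocyte growth factor and its receptor, 9 were higher in aged samples and none was lower (0 also unadjusted and in DESeq2), against 9.73% and 7.97% of all tested genes, and the median log2 fold change was 0.86. The 9 were the secreted factors Csf3 and Ccl3 and 7 receptors. Csf3, encoding granulocyte colony-stimulating factor, was at 12.7, 26.8 and 22.1 CPM in young A, B and C and at 224, 116 and 133 CPM in aged A, B and C (log2 fold change 2.94, SE 0.32, edgeR adjusted p = 0.00136). Ccl3 (MIP-1α) rose from 301 ± 48.3 to 1332 ± 227 CPM (log2 fold change 2.15, SE 0.20, edgeR adjusted p = 0.00127). Ltb4r1, the leukotriene B4 receptor, rose from 64.1 ± 3.77 to 224 ± 46.7 CPM (SD, n = 3 each, log2 fold change 1.80, edgeR adjusted p = 0.00127). The formyl peptide receptors Fpr1 and Fpr2, the complement C5a receptors C5ar1 and C5ar2, Ccr1 and Ptafr also passed, with log2 fold changes of 0.86 to 1.70. S100a8 and S100a9, the calprotectin subunits abundant in neutrophils, had log2 differences of 0.48 and 0.20 (edgeR adjusted p = 0.244 and 0.700).

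The list on induction and decay of chemokine transcripts held 38 genes, and all were tested. Of these, 20 were higher in aged samples (22 in DESeq2) and none was lower (0 also unadjusted and in DESeq2), against 9.73% and 7.97% of all tested genes. By over 2-fold, 7 were higher, against 4.59% of all tested genes. The median log2 fold change over the list was 0.75. Il1rap, the accessory chain of the interleukin-1 receptor, rose from 13.6 to 18.7 CPM over the young samples to 34.8 to 51.9 CPM over the aged samples (log2 fold change 1.50, edgeR adjusted p = 0.00351). Nfkb1, the p105/p50 subunit of NF-κB, rose from 21.1 ± 2.63 to 56.1 ± 8.59 CPM (log2 fold change 1.41, edgeR adjusted p = 0.00242). Zc3h12a, encoding the ribonuclease regnase-1 that degrades inflammatory transcripts, had a log2 fold change of 1.41 (edgeR adjusted p = 0.0130). Genes of induction and of decay were thus both among those that passed. Zfp36, encoding tristetraprolin, was among the abundant genes at 2133 to 2955 CPM in young and 3214 to 3663 CPM in aged samples and did not pass the test (log2 difference 0.41, edgeR adjusted p = 0.155).

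Of 30 signalling genes below CXCR2 that were tested, 4 were higher and 3 lower in aged samples and 23 did not pass, near the 9.73% and 7.97% of all tested genes, and the median log2 fold change was 0.01. Pik3r5, a regulatory subunit of the phosphoinositide 3-kinase that G proteins activate, had a log2 fold change of 1.14 (edgeR adjusted p = 0.0114), Gnai3, an inhibitory G protein subunit, 0.89 (0.0122), and Grk5, a kinase that desensitises receptors, 0.82 (0.0410). Rgs2 and Rgs18, which shut off G protein signals, fell by 1.31 and 1.12 on the log2 scale (edgeR adjusted p = 0.0259 and 0.0328), and Arrb2, the β-arrestin that takes up CXCR2, fell by 0.75 (0.0264).

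Proteases that trim these chemokines and molecules that bind them were 21 listed genes, of which 17 were tested. Of these, 7 were higher and 1 was lower in aged samples, against 9.73% and 7.97% of all tested genes, and the median log2 fold change was 0.69. The lower genes numbered 2 in DESeq2 and 3 at an unadjusted p under 0.05. Mmp13 rose from 34.3 ± 3.47 to 227 ± 77.5 CPM (SD, n = 3 each, log2 fold change 2.73, SE 0.26, edgeR adjusted p = 0.00127). Mmp12, the macrophage elastase that cuts CXC ligands at the receptor-binding motif, rose from 274 ± 104 to 840 ± 145 CPM (log2 fold change 1.62, SE 0.26, edgeR adjusted p = 0.00627). Sdc4, a heparan sulfate proteoglycan, had a log2 fold change of 1.34 (edgeR adjusted p = 0.00236), and the syndecan Sdc3 fell by 0.69 (0.0184).

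Tnfaip6 encodes TSG-6, a secreted protein that binds CXC chemokines and blocks neutrophil migration, and it was at 48.7, 62.9 and 62.8 CPM in young and 143, 98.3 and 163 CPM in aged samples (log2 fold change 1.21, edgeR adjusted p = 0.00815). Srgn, the serglycin core protein on which granule chemokines are stored, had a log2 fold change of 1.13 (edgeR adjusted p = 0.0122). Thbd, thrombomodulin, which platelet factor 4 binds, had 0.88 (0.0390). Mmp8 and Mmp9, which process Cxcl5, had log2 differences of 0.50 and -0.54 (edgeR adjusted p = 0.313 and 0.143).

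The genes whose log2 CPM over the 6 samples was most like that of each member were taken from 6581 genes with a mean of at least 10 CPM. These correlations include the age difference, share libraries and depth, and are given without a test. Tnfaip6 was closest to Cxcl2 (Pearson r = 0.9996), and A930007I19Rik (0.999), Tarm1 and Upp1 (0.998 each) were closest to Cxcl3. Mmp8, Atf6b and Atg101 were closest to Cxcl1 (0.985, 0.983 and 0.979), and Wnk1, Jak1 and Tstd2 to Cxcl5 (0.993, 0.992 and 0.989). Cebpd, Rab31 and Oxsr1 were closest to Ppbp (0.991, 0.989 and 0.987), Pdf, Hikeshi and Slc25a22 to Pf4 (0.994, 0.989 and 0.985), and Il10ra, Csnk1e and Cd33 to Cxcr2 (0.988, 0.988 and 0.987). The lists for the 7 genes shared no gene.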

How the data were processed

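RNA of macrophages from day 3 wounds was sequenced (young, n = 3; aged, n = 3). The authors aligned reads with STAR 2.7.3a to mm10 and quantified Ensembl transcripts release 102 in Partek Flow, and they deposited expected counts per gene, which were not normalised and whose lowest row total is 10. Whether strand was used is not given in the sources used here. A second deposited table holds the authors' own DESeq2 comparison (size-factor-scaled counts, fold changes and p-values) and was not used.

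Expected counts, of which 30.7% to 34.0% per sample were not whole as printed in the table (at 6 significant digits), were rounded and tested in R 4.3.3 with edgeR 4.0.16 (TMM scaling, filterByExpr by age, quasi-likelihood test of aged against young, Benjamini-Hochberg adjustment over 11878 genes). The planned test named raw counts, and rounding was added for this unit. Genes pass at an adjusted p under 0.05, and the fold threshold is 2. CPM use TMM-scaled totals, and log2 CPM a prior count of 2. The members and gene lists were chosen with earlier results of these data known. Named genes are the members, up to 3 passing genes per direction of each list and others described by role, the leading or absent markers, the 3 closest genes by correlation and the chromosomal neighbours. Other genes that passed in a list are named after their values were seen.

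Alternatives were DESeq2 1.42.0, limma-voom (limma 3.58.1), other scalings and filters, a block on set letter and leaving out each sample. The model was tested on simulated data. Transcript lengths and untranslated regions came from GENCODE M21, promoters from RefSeq (6 of 7 genes matched). Motifs were searched on both strands of promoters and on the sense strand of untranslated regions.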

Additional observations from a re-analysis of the deposited data

How the results depend on the processing

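Cxcl2 and Cxcl3 were higher in aged samples at an adjusted p under 0.05 in all 13 alternatives, which were DESeq2, limma-voom, 2 other scalings, 2 other filters, a block on the set letter and the 6 fits that left out 1 sample. Their log2 fold changes ran from 1.30 to 1.69 and from 2.15 to 2.56. Cxcl1 (log2 0.45 to 1.30, adjusted p 0.0772 to 0.322) and Pf4 (-0.55 to -0.04, adjusted p 0.195 to 0.929) passed in none of the 13. Leaving out 1 sample gave 1.21 to 1.97 for Cxcl5 and 1.48 to 2.33 for Ppbp, and both lost the call without young C (adjusted p = 0.0741 and 0.0586 in edgeR). It gave 0.89 to 1.45 for Cxcr2, with adjusted p-values of 0.0118 to 0.143, and 2 to 5 members over 2-fold and past the test, the lowest without young C. The direction of each of the 7 genes was the same in each alternative.

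With the set letter as a replicate block, Cxcr2 had a log2 fold change of 1.12 (edgeR adjusted p = 0.0596), and 4 of the 7 genes passed at over 2-fold, as did 1056 of all 11878 genes. Whether the letters pair the samples was not settled by the check used here. Deviations from the age mean correlated at 0.181, -0.0206 and 0.114 for the same letter. For different letters they correlated at -0.215 to 0.138, which partly overlaps the same-letter values, and the difference was not tested. Over all genes, 1044 passed at over 2-fold, 2103 without the fold threshold, and 213 (without young C) to 1503 (without young A) when 1 sample was left out, with 521 without young B and 475 without aged C. The cause of these shifts was not tested. With 3 samples an age, a p in a comparison of ratios cannot go below 0.1.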
